A study of Mus musculus with 4 samples.

Results

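Polycomb repressive complex 2 (PRC2) and the methyl-CpG binding protein MBD1 are chromatin repressors that have been reported to bind the long noncoding RNA H19. The 9 genes described here were chosen by symbol and not by a limit on their values, though earlier results of these data were known. They comprise the PRC2 catalytic genes Ezh2 and Ezh1, the core genes Suz12, Eed, Rbbp4 and Rbbp7, the accessory genes Jarid2 and Mtf2, and Mbd1. All 9 were listed among the 16211 gene symbols of both mRNA tables, and all 9 were among the 11412 genes with at least 100 reads in 1 library, the set called tested genes below.

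The cells were tumor-initiating hepatocytes of C57BL/6 mice, a term of the labels for liver cells able to initiate tumors. One mRNA library was of the control genotype and titled shcont, and the other was of the genotype H19 knockdown and titled shH19. The labels give no age, passage, time point or treatment, and no hairpin sequence. With 1 library a group there was no spread between cultures to compare a difference with, so no difference below has a replicate check and no p-value was computed.

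PRC2 adds methyl groups to lysine 27 of histone H3, a mark of silenced developmental genes. EZH2 or EZH1 carries the catalytic SET domain, SUZ12 is the scaffold, EED reads the methylated lysine and RBBP4 or RBBP7 binds histones. MBD1 binds methylated CpG and works with a histone H3 lysine 9 methyltransferase. H19 has been reported to guide EZH2 to genes such as Cdh1 in cancer cells, and MBD1 to Igf2, Slc38a4 and Mest in embryonic cells.

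Depth was 33578868 reads for the control library and 34061172 for the one labelled H19 knockdown. H19 itself, which checks the label, had 43 and 40 reads, a ratio of 0.931 (95% counting interval 0.589 to 1.46). H19 was thus not measurably lower where the label says it was knocked down, and every direction below refers to the label alone. Of the hepatocyte markers 11 of 12 were listed, with a summed level of 3378 CPM (reads scaled to the TMM-normalised library size) in the control and 3012 in the other library. Hnf4a had 2373 and 2764 reads and Apob 37279 and 30259, but Alb only 129 and 88, and Cps1 was not listed. The bile duct markers Krt19 (29919 and 39984 reads) and Spp1 (72614 and 73248) were abundant, as was Krt7, which differed in the other direction (6162 and 4194), with Sox9 at 122 and 109 and Epcam at 12 and 11. Summed levels were 9.47 and 7.03 CPM for 5 of 7 macrophage markers (Adgre1 and Clec4f were not listed), 2.13 and 2.16 for 2 of 5 endothelial markers and 2.16 and 1.66 for 2 of 6 stellate cell and fibroblast markers, while 0 of 6 lymphocyte markers were listed. The 7 tested mitochondrially encoded genes were all higher in the library labelled H19 knockdown, against 51.9% of all tested genes. Their median log2 ratio was 0.35, and their part in the results was not tested.

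None of the 9 genes differed by 1.5-fold between the libraries. Of all tested genes 1.31% reached that limit upward and 1.39% downward, so a count of 0 among 9 is near the background. Log2 ratios (library labelled H19 knockdown divided by control), computed with 1 count added after scaling, ran from -0.33 for Mbd1 to 0.27 for Suz12. The median over the 9 was -0.052, against 0.0085 over all tested genes. Suz12 and Rbbp7 lay above 0 and the other 7 below, where 51.9% of tested genes lay above 0. In bulk RNA, fewer cells expressing a gene and less RNA per cell cannot be told apart.

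**Figure D1:**
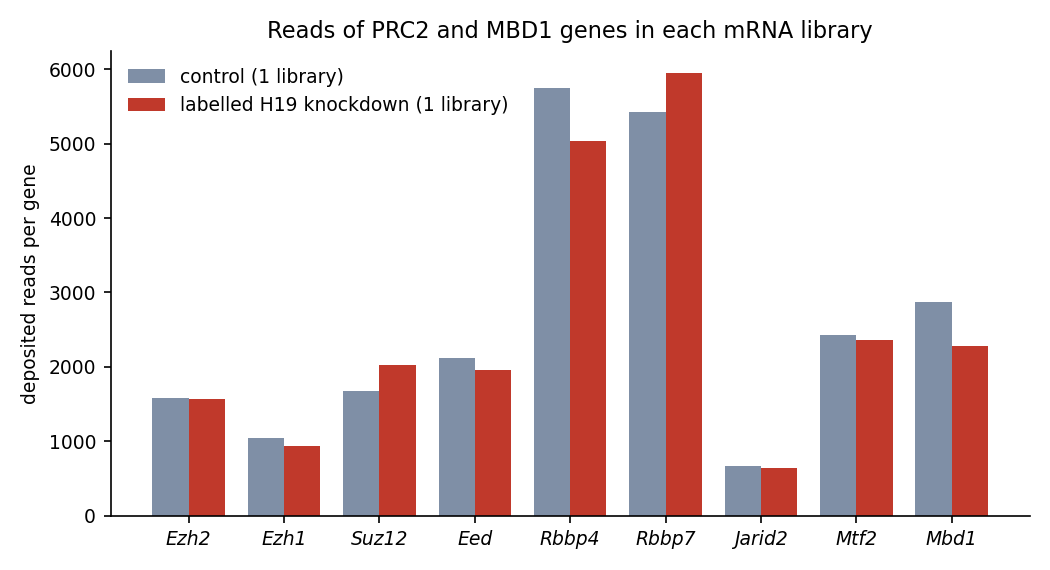
Deposited reads (vertical axis, from 0) of each of the 9 genes (horizontal axis) in the control library (grey) and the library labelled H19 knockdown (red), 1 library each and so without error bars. Paired bars are close for every gene, with the widest relative gaps at Mbd1 (2873 and 2280 reads) and Suz12 (1682 and 2030 reads).

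Ezh2 encodes the main histone methyltransferase of dividing cells. It had 1584 reads in the control library and 1571 in the one labelled H19 knockdown, or 46.9 and 46.4 CPM. The ratio was 0.991, and its counting interval of 0.923 to 1.06 held 1. Ezh1, the paralog known for its presence in resting and differentiated cells, had 1046 and 931 reads. Its ratio was 0.889 (0.813 to 0.972), lower by more than counting error, and 18.3% of tested genes had a lower ratio. Ezh2 thus made up 60.2% of the reads of the catalytic pair in the control (exact Clopper-Pearson 95% interval 58.3 to 62.1) and 62.8% (60.9 to 64.7) in the other library. These intervals overlapped. The pair's read ratio, which needs no scaling, changed 1.11-fold between libraries with an interval of 0.996 to 1.25 that held 1. After the median log2 ratio of each gene's chromosome was subtracted, taken as fixed, the change was 1.22-fold (1.09 to 1.37), so whether the shift between the catalytic paralogs exceeded counting error turned on that subtraction.

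Suz12, without which PRC2 is unstable, had the highest ratio of the 9. Its reads were 1682 in the control library and 2030 in the one labelled H19 knockdown, or 49.8 and 60.0 CPM. The ratio of 1.21 (1.13 to 1.29) exceeded that of 90.1% of tested genes. Among the 7465 tested genes with a mean of 500 to 6000 reads, which spans the members, log2 ratios had a standard deviation of 0.19 and a 95th percentile of 0.32, so the 0.27 of Suz12 lay inside the range of most genes. Eed, the subunit that binds the methylated lysine and stimulates the enzyme, lay on the other side of 0 with 2117 and 1952 reads and a ratio of 0.921 (0.866 to 0.980). Suz12 reads per Eed read were 0.795 in the control and 1.04 in the other library, a change of 1.31-fold (1.20 to 1.43). Suz12 reads per Ezh2 read went from 1.06 to 1.29, a change of 1.22-fold (1.11 to 1.34). Ezh2 reads per Eed read changed 1.08-fold, with an interval of 0.980 to 1.18 that held 1. As counted, the pairs with Suz12 thus differed between the libraries beyond counting error and the pair of Ezh2 and Eed did not. With chromosome medians subtracted, the changes were 1.31-fold (1.20 to 1.43) for Suz12 and Eed, 1.11-fold (1.01 to 1.22) for Suz12 and Ezh2 and 1.18-fold (1.07 to 1.29) for Ezh2 and Eed.

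The histone-binding subunits Rbbp4 and Rbbp7 are close paralogs that also serve in deacetylase and chromatin assembly complexes. They were the most counted of the 9. Rbbp4 had 5754 reads in the control library and 5041 in the one labelled H19 knockdown, a ratio of 0.875 (0.842 to 0.909). Rbbp7 had 5424 and 5952, a ratio of 1.10 (1.06 to 1.14). Their order was reversed between the libraries: Rbbp7 held 48.5% of the pair's reads in the control (47.6 to 49.5) and 54.1% in the other library (53.2 to 55.1).

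Position on the chromosomes moved with this exchange. Rbbp4 lies on chromosome 4 (129307100 to 129335370, GRCm38), where 646 tested genes had a median log2 ratio of -0.17, and its own log2 ratio was -0.19. Of the 20 tested genes nearest to it, within 1.37 Mb, 2 lay above 0. Rbbp7 lies on chromosome X (162760372 to 162779090), where the median of 342 genes was 0.066, and its log2 ratio was 0.13. The log2 difference between Rbbp7 and Rbbp4 was 0.32 as counted and 0.084 after each gene's chromosome median was subtracted, and the change of their read ratio went from 1.25-fold (1.19 to 1.32) to 1.06-fold (1.01 to 1.12). For Rbbp4 itself, the log2 ratio less the chromosome median was -0.017, with an interval of -0.072 to 0.037 that held 0.

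The other members did not sit on chromosomes with such a shift, apart from Ezh2. On chromosome 6 (Ezh2 at 47530274 to 47595270) the median was -0.10 over 522 genes, so Ezh2 stood at 0.086 after subtraction. Suz12 (79993106 to 80034123) and Ezh1 (101191115 to 101226463) share chromosome 11, where the median of 912 genes was 0.034. They differed in opposite directions there, at 0.24 and -0.20 after subtraction. Eed on chromosome 7 (89954654 to 89980976) was at -0.15.

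**Figure D2:**
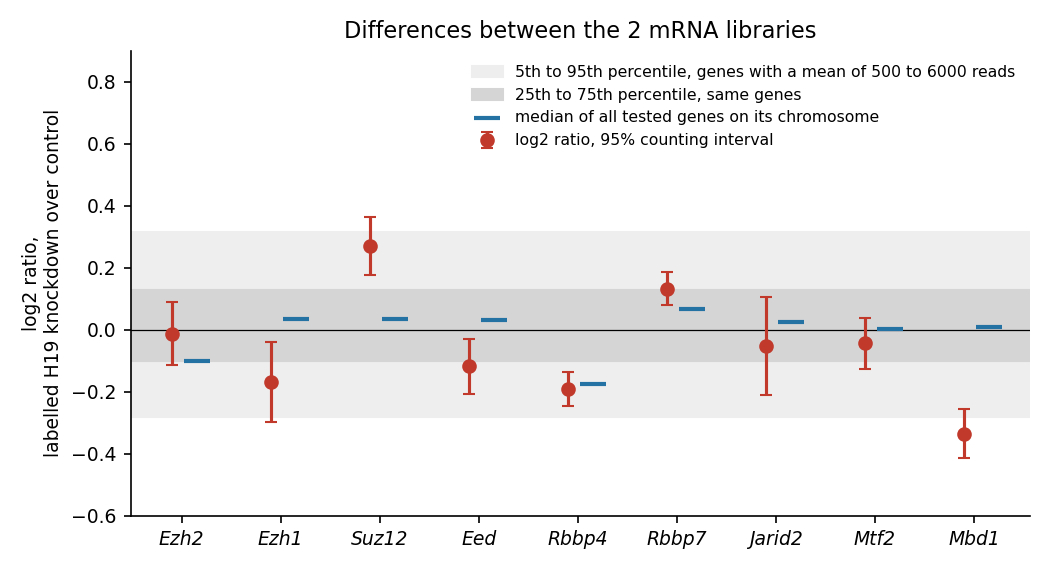
Log2 ratio, library labelled H19 knockdown divided by control (vertical axis) for each of the 9 genes (horizontal axis), with 95% counting intervals as bars, the median of all tested genes on the gene's chromosome as blue dashes, and grey bands for genes with a mean of 500 to 6000 reads. Mbd1 at -0.33 is the 1 point outside the outer band, and the dash for Rbbp4 (-0.17) lies beside its point (-0.19).

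The accessory subunits showed the least difference beside Ezh2. Jarid2, which helps bring PRC2 to its targets, was the least counted member with 667 reads in the control library and 644 in the one labelled H19 knockdown, a ratio of 0.965 (0.864 to 1.08). Mtf2, a Polycomb-like protein that binds CpG islands, had 2434 and 2364 reads, a ratio of 0.970 (0.916 to 1.03). Both intervals held 1. Mtf2 made up 78.5% of the reads of this pair in the control and 78.6% in the other library. Jarid2 and Mtf2 mark alternative forms of PRC2, and the change of their read ratio was 1.01-fold (0.890 to 1.14).

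Mbd1 had the lowest ratio of the 9. It had 2873 reads in the control library and 2280 in the one labelled H19 knockdown, or 85.0 and 67.4 CPM, and the ratio was 0.793 (0.750 to 0.838). Among tested genes 6.07% had a lower ratio, and among those with a mean of 500 to 6000 reads 2.73% did. Mbd1 lies on chromosome 18 (74267605 to 74282737), whose 280 tested genes had a median of 0.0090, and its 20 nearest tested genes had a median of -0.056. After subtraction of the chromosome median its log2 ratio was -0.34.

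Counting intervals lay wholly above 0 for 2 members (Suz12 and Rbbp7) and wholly below 0 for 4 (Ezh1, Eed, Rbbp4 and Mbd1). This was so for 28.0% and 24.1% of all tested genes, which were not matched to the members for reads and thus for interval width. Intervals that leave out 0 were common in the whole table. Such an interval shows that 2 libraries differed, not that the conditions did.

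Levels can be compared between genes only per length. Lengths came from GENCODE vM1 (NCBIM37), an annotation of an older build than the files' GRCm38, and were used for lengths only. In CPM per kilobase of coding sequence, the control level was 125.6 for Rbbp7 (counting interval 122.2 to 128.9) and 122.8 for Rbbp4 (119.7 to 126.0), which were not distinguishable. Eed at 47.2 (45.2 to 49.3) and Mbd1 at 44.5 (42.9 to 46.1) overlapped as well, followed by Mtf2 at 40.4 (38.8 to 42.0). Suz12 at 22.4 (21.3 to 23.4) and Ezh2 at 20.9 (19.9 to 22.0) overlapped, with Ezh1 at 13.7 (12.9 to 14.6) and Jarid2 at 5.33 (4.93 to 5.75) below them. In the library labelled H19 knockdown the order was the same except that Mtf2 at 39.2 stood above Mbd1 at 35.3, and the levels of Rbbp7 (137.6) and Rbbp4 (107.5) no longer overlapped, nor did those of Suz12 (27.0) and Ezh2 (20.7).

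The scale matters for genes with long untranslated regions. Per kilobase of the longest transcript, the control level of Rbbp4 was 38.6, against 71.5 for Rbbp7, and that of Suz12 was 11.4, against 17.7 for Ezh2. On either scale Ezh2 exceeded Ezh1, by 1.52-fold per coding kilobase and 2.40-fold per transcript kilobase in the control, and Jarid2 was lowest.

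**Figure D3:**
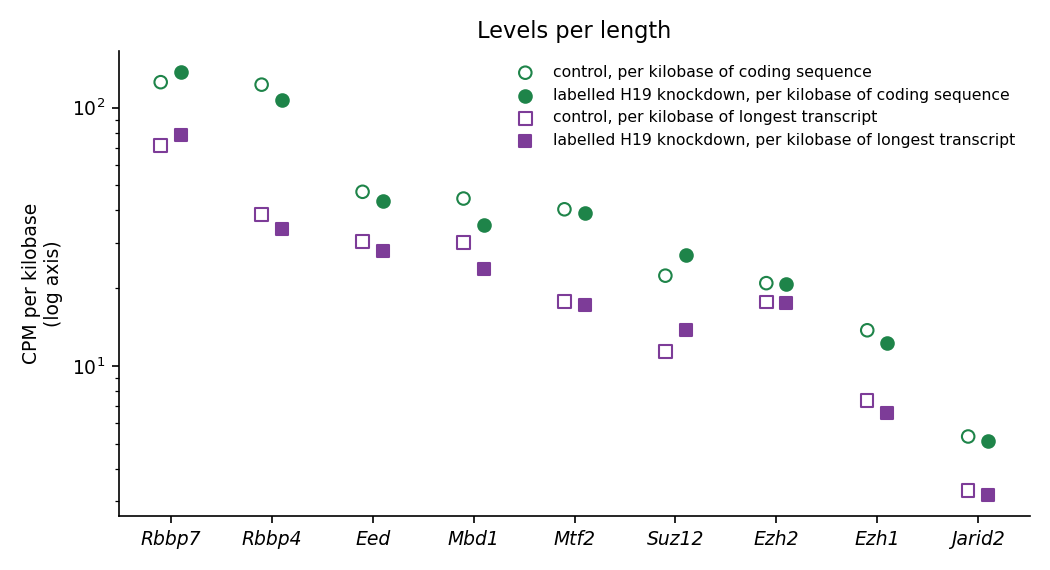
Level in CPM per kilobase (vertical log axis) of the 9 genes, ordered by the control level per coding kilobase (horizontal axis), in the control (open symbols) and the library labelled H19 knockdown (filled), per kilobase of coding sequence (green circles) or of the longest transcript (purple squares). Rbbp7 and Rbbp4 stand highest and Jarid2 lowest, and the choice of length moves Rbbp4 most.

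Some members have copies elsewhere in the genome that could take or lend reads, and their counts are uncertain to that extent. In NCBIM37, 77.7% of the Rbbp7 transcript aligned to a second place without introns at 96.5% identity, and 43.8% of the Rbbp4 transcript did so at 90.5%. A second alignment covered 89.8% of Suz12 at 85.0% identity and 24.9% of Mtf2 at 86.7%. For Ezh2, Ezh1, Eed, Jarid2 and Mbd1 no second alignment of 200 bases or more was found. How reads with several matches were counted is not given in the sources used here.

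The genes of PRC2 have been described as targets of E2F factors, which drive genes of DNA replication and mitosis. The E2F consensus, searched as TTTCCCGC, TTTGGCGC, TTTCGCGC and TTTGCCGC on both strands of the RefSeq promoter windows (GRCm38.p6, 250 bases before to 50 after a start site), was found in those of 2 of the 8 members with an entry, Ezh2 and Suz12. Such a word occurred in 2.26% of all 32851 windows and for 5.03% of 8648 tested genes with a window. The matches are shown with 10 bases on either side, in the direction of the gene, with the match in capitals. That of Ezh2 begins at base 4 counted from the start site of its window, and that of Suz12 219 bases before the start site. The Ezh2 window (47594981 to 47595280) was set on a start site inside the gene, downstream of the gene's outer end at 47595270.
Ezh2, chr6:47595010-47595037, minus strand: ggttgctgcgTTTGGCGCtcggtccggt
Suz12, chr11:79992877-79992904, plus strand: gacccctcatTTTCCCGCgaattcagtt
A match is a description of letters, not of binding.

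In the list of E2F and cell cycle genes 23 of 26 tested genes lay above 0, against 51.9% of all tested genes. The median log2 ratio of the list was 0.23. Of all tested genes 1.31% were at least 1.5-fold higher. The 1 gene of the list past that limit was the mitotic checkpoint kinase Bub1b, at 2019 and 3078 reads (log2 ratio 0.61). Below it came E2f8 with 533 and 781 (0.55), the helicase subunit Mcm4 with 3345 and 4708 (0.49) and Top2a with 9408 and 12614 (0.42). A match was found for 9 of the 21 genes of that list with a promoter window. Of the 2 members with such a match, Suz12 at 0.27 lay near the median of that list and Ezh2 at -0.013 did not. With chromosome medians subtracted they stood at 0.24 and 0.086. The 435 tested genes with a match had a median of only 0.064, and the 8213 without one had 0.0051. A part of E2F in the ratio of Suz12 was not tested.

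The 3' untranslated regions were searched for the seed matches of miRNAs reported to repress PRC2 genes, since the same cells were profiled for small RNA. The miRNAs miR-101 and miR-26a are known repressors of EZH2, and miR-200b of SUZ12. Mature sequences from RefSeq are given 5′ to 3′ with the seed, bases 2 to 8, in capitals. The seed is shared by miR-26a and miR-26b, while the entry of miR-101b begins 1 base earlier than that of miR-101a, so that its seed is shifted.
miR-101a-3p: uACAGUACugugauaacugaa
miR-101b-3p: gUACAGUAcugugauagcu
miR-26a-5p: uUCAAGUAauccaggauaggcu
miR-26b-5p: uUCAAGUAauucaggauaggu
miR-138-5p: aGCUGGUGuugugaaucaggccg
miR-200b-3p: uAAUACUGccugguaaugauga

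The Ezh2 untranslated region of 267 bases (transcript Ezh2-001 of GENCODE vM1) held 2 matches to miR-101a, 1 to miR-101b that overlaps the second of them, 1 to miR-26 and 1 to miR-138. Among 1573 other regions within 20% of its length, 1.84% held a miR-101a match, 2.35% a miR-26 match and 2.23% a miR-138 match. Sites are printed as in the mRNA, with the match in capitals and the position of its first base in the untranslated region.
Ezh2, base 59, miR-101a: aaccttgaGTACTGTgggcaat
Ezh2, base 114, miR-101a: tttgcaaaGTACTGTaacagta
Ezh2, base 169, miR-138: tgccttctCACCAGCtgcaaag
Ezh2, base 248, miR-26: ataaagaaTACTTGAacttgtt
Eed, base 152, miR-101a: cattctttGTACTGTcttcctg
Suz12, base 681, miR-26: taggttttTACTTGAacatgtt
Suz12, base 1311, miR-200b: ttgtcatcCAGTATTaagttct

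Matches were found in other members too. Eed had 1 match to miR-101a in 281 bases, and 1.93% of 1604 regions of like length held one. Suz12 had 1 match each to miR-26 and miR-200b in 1933 bases, a length at which 13.3% and 19.5% of regions held them. In Rbbp7 a miR-101a match overlapped one to miR-101b, and 5.42% and 8.79% of regions of like length held these. Jarid2 had 1 match to miR-26, found in 11.4% of regions of its length. Mtf2 had 1 to miR-138 and 2 to miR-200b, at a length where 18.6% and 20.7% of regions held at least 1. For Ezh1, Rbbp4 and Mbd1 no match to any of the 5 seeds was found in the transcript used.

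In the small RNA libraries miR-101a-3p had 55556 reads in the control library and 73121 in the one labelled H19 knockdown. The latter library was deeper, with 10483889 reads on mature arms against 7105897, and after scaling the ratio was 0.924 (0.914 to 0.934). miR-101b-3p was at 0.913 (0.894 to 0.932). miR-26a-5p, with 87863 and 126234 reads, was at 1.01 (1.00 to 1.02) and miR-26b-5p at 0.935 (0.923 to 0.947). The size of these differences depended on the scaling: scaled to the total count, the log2 ratios were -0.16 for miR-101a-3p, -0.18 for miR-101b-3p, -0.038 for miR-26a-5p and -0.15 for miR-26b-5p, against -0.11, -0.13, 0.012 and -0.097. Ezh2, which carries matches to them, was at a ratio of 0.991. Of the other members with matches to miR-101, Eed was at 0.921 and Rbbp7 at 1.10. Of those with a match to miR-26, Suz12 was at 1.21 and Jarid2 at 0.965.

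The less abundant arms differed more. miR-138-5p had 2029 and 3639 reads, a ratio of 1.26 (1.19 to 1.33). miR-200b-3p had 429 and 980 reads, a ratio of 1.60 (1.43 to 1.80). Beside it, Mtf2, with 2 matches to miR-200b and 1 to miR-138, had a ratio of 0.970, Suz12, with 1 match to miR-200b, had 1.21, and Ezh2, with 1 to miR-138, had 0.991. Among 295 arms with at least 100 reads, 2.71% were at least 1.5-fold higher, and the standard deviation of the log2 ratio was 0.40. miR-214-3p had 4 and 8 reads, too few to compare, and miR-200c was not listed.

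The wider Polycomb machinery was described with lists of genes chosen for their function. Of the other PRC2 accessory genes and antagonists 4 of 8 tested genes lay above 0, against 51.9% of all tested genes. The median log2 ratio of this list was -0.020. Kdm6b, a demethylase of the PRC2 mark, had 352 and 279 reads (-0.34), while its relative Kdm6a had 1544 and 1741 (0.17) and Lcorl 1098 and 1232 (0.16). Phf1, a Polycomb-like relative of Mtf2, had 408 and 346 (-0.24) and Aebp2, which joins the Jarid2 form of the complex, 3075 and 2779 (-0.15). Aebp2 lies on chromosome 6, where the median was -0.10.

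PRC1, the complex that ubiquitinates histone H2A at Polycomb targets, had 16 of 25 tested genes above 0 and a median of 0.076. Over all tested genes 51.9% lay above 0 and 1.39% were at least 1.5-fold lower. The 1 PRC1 gene that differed by 1.5-fold was Pcgf1, of a variant PRC1, with 287 and 189 reads (-0.60). Bcorl1 had 467 and 601 reads (0.36), the chromobox gene Cbx2 1079 and 1332 (0.30) and Kdm2b, which brings variant PRC1 to CpG islands, 944 and 1140 (0.27). The genes of other complexes that hold RBBP4 or RBBP7 lay above 0 in 17 of 22 cases, against the same 51.9%, with a median of 0.15. Among them Chd3 had 8878 and 11598 reads (0.38), and the chromatin assembly factor genes Chaf1a 1511 and 1930 (0.35) and Chaf1b 1922 and 2266 (0.24). Mta1 had 890 and 1092 (0.29), while the deacetylase Hdac1 had 1280 and 1101 (-0.22). Mta1 lies on chromosome 12, where the median of 357 tested genes was 0.28, and Hdac1 on chromosome 4, with its median of -0.17. Most of these 2 differences was thus shared with their chromosomes. With chromosome medians subtracted, the median of this list was 0.12.

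The relatives and partners of Mbd1 had log2 ratios on either side of 0, and none lay below its -0.33. In the list of methyl-CpG binding and related readers 5 of 9 genes lay above 0, against 51.9% of all tested genes, with a median of 0.040. The lowest log2 ratio of that list was -0.17 for Mbd4 (395 and 351 reads), whose counting interval of -0.38 to 0.039 held the value of Mbd1. Mbd6 had 388 and 436 reads (0.17), Mbd2 had 3136 and 3227 reads (0.040), and Uhrf1, which maintains DNA methylation in dividing cells, had 3979 and 5095 (0.36). Genes of histone H3 lysine 9 methylation and partners of MBD1 lay above 0 in 9 of 12 cases, against the same 51.9%, with a median of 0.11. Setdb1, the methyltransferase that works with MBD1, had 2485 and 2809 reads (0.18), Suv39h1 1230 and 1535 (0.32), Trim28 10832 and 13235 (0.29) and Ehmt2 7972 and 9120 (0.19). Setdb2, a relative of Setdb1, was the lowest of that list with 632 and 549 reads (-0.20), and its interval of -0.37 to -0.037 held the value of Mbd1 too. Whether Mbd1 differs from these lists could not be tested with 1 library a group.

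**Figure D4:**
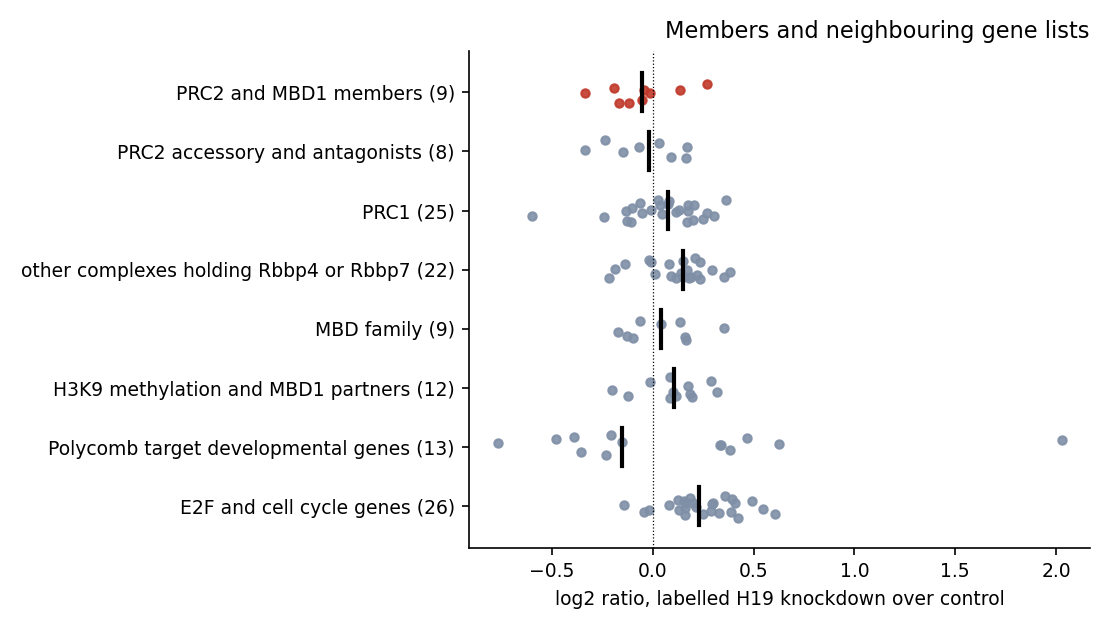
Log2 ratio, library labelled H19 knockdown divided by control (horizontal axis) of each tested gene (points, spread vertically for visibility) in the 9 members (red) and 7 neighbouring lists (grey), with list medians as black lines and the number of tested genes in brackets. The members have a median of -0.052, the E2F and cell cycle list one of 0.23, and the Polycomb targets the widest spread.

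Genes known as Polycomb targets in other cells were mostly at low counts or not listed. Of 64 developmental genes, 21 were listed and 13 tested. Of these 6 lay above 0 and 7 below, where 51.9% of all tested genes lay above 0. Their median log2 ratio was -0.15, or 0.17 with a minimum of 20 reads in place of 100, so the list had no stable direction. Cdkn2a, the cell cycle inhibitor locus that PRC2 represses in many cells, had 143 and 109 reads (-0.39) and its neighbor Cdkn2b 1011 and 861 (-0.23). Both lie on chromosome 4, where the median was -0.17. Apart from En1, with 24 and 101 reads (2.03), the genes that differed by 1.5-fold were Hoxb13 (187 and 289 reads, 0.62) and Pax6 (108 and 63 reads, -0.77). En1 was known to have the highest ratio of these data when the list was drawn up, and it is no independent evidence. Pax6 reached 100 reads only in the control library, and En1 and Irx3 (82 and 114 reads) only in the other. These genes thus entered the tested set through the library where they were higher, and their directions are no evidence.

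The genes at which H19 was reported to act through these partners had few reads, apart from Cdh1. Of the reported MBD1 genes Slc38a4 had 25 reads in the control library and 35 in the one labelled H19 knockdown, Mest had 33 and 57, and Igf2 was not listed. Slc38a4 and Mest lay below the minimum of 100 reads. The counting interval of the log2 ratio was -0.30 to 1.29 for Slc38a4 and 0.14 to 1.45 for Mest. Of the reported EZH2 genes Cdh1, which encodes E-cadherin, had 6174 and 5384 reads, a log2 ratio of -0.20, and Nkd1 was not listed.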

How the data were processed

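The mRNA libraries of 2 conditions were analysed, with 1 library each, and the 2 small RNA libraries of the same conditions for 7 miRNA arms. Unnormalized read counts for each gene symbol were deposited by the authors. Trimmomatic 0.36 and STAR 2.5.2b were used on build GRCm38, per the submitters' processing notes. For the counting program, annotation and strand setting, a statement is not given in the sources used here. Deposited small RNA counts per precursor arm come from reads of 15 to 31 bases annotated with miRBase 21, according to the design text. Where an arm has several precursor copies, the most counted copy was used.

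Counts were scaled over all genes with edgeR 4.0.16 TMM sizes in R 4.3.3. Log2 ratios had 1 count added, and exact conditional binomial 95% intervals cover counting error only, because 1 library a group gives no spread between cultures. The intervals take reads as independent, which PCR copies are not, so they can be too narrow even for counting error. With 1 library a group no count model was tested and no p-value exists. Genes with at least 100 reads in 1 library were called tested. In simulated Poisson counts for the 16211 genes of the mRNA comparison, 1 of 11135 unaltered genes was called at 1.5-fold and 95.1% of true ratios lay in their interval. The simulation drew independent reads, as the intervals assume, so it checks the computation only. It held no PCR copies and no spread between cultures.

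The members and gene lists were chosen with earlier results of these data known. The text names every member, all listed genes of the reported H19 partners' genes, and from each list the genes at least 1.5-fold different and up to 4 with the largest absolute log2 ratio at 100 reads or more; Aebp2, Hdac1, Mbd2, Setdb1, Cdkn2a, Cdkn2b and the cell type markers named were added for their role after their values were seen. A further gene in the list of methyl-CpG readers is not reported here by name. Transcripts were aligned to NCBIM37 with minimap2 2.31, and only counts and identity were kept. Other steps ran in Python 3.11.15 (scipy 1.17.1, pandas 2.3.3, matplotlib 3.10.9). Alternatives were total-count scaling, TMM leaving out the 10 genes with the most reads, size factors of DESeq2 1.42.0, 5 or 0.5 counts added, a 2-fold limit, intervals beyond 1.5-fold, other read minimums for the lists and subtraction of chromosome medians. Subtraction of the median of the 20 nearest genes, total-count scaling of miRNA arms and chromosome medians for pairs of genes were chosen after seeing the data.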

Additional observations from a re-analysis of the deposited data

Results flagged for a closer look

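The comparison of miRNA arms left out reads that lie outside both arms of a precursor. After scaling, the library labelled H19 knockdown held more such reads beyond counting error at 2 of the 7 precursors described and fewer at 2. The like shares over all precursors were not counted, so these counts have no background beside them. At mir-26a-2 they numbered 737 in the control library and 1281 in the other, 0.831% and 1.00% of the reads on the precursor. At mir-200b they numbered 0 and 11, where 0 of 431 reads in the control allows up to 3. They were lower at mir-26b, with 456 and 532 reads and a scaled ratio of 0.819 (0.721 to 0.930), and at mir-101b, with 16358 and 21370 and a ratio of 0.917 (0.898 to 0.936).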

How the results depend on the processing

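Of 63 alternative values of the 9 log2 ratios, 59 stayed within their counting interval and 0 with an interval that left out 0 changed sign. The 4 others came from position on the chromosome: Rbbp4 was at -0.017 with the chromosome median subtracted and at -0.050 with that of the 20 nearest genes, and Rbbp7 at 0.067 and 0.074, against -0.19 and 0.13. The shift follows from the construction of these alternatives. At these read numbers the other scalings and added counts could hardly move a value out of its interval, so the count of 59 says little. Ezh2, whose interval held 0, moved from -0.013 to 0.086, so that 3 members in place of 2 lay above 0. Members at least 1.5-fold different numbered 0 under every alternative run, and their median log2 ratio ranged from -0.071 (total count) to -0.046. Total-count scaling shifted log2 ratios of mRNA by -0.019 and turned miR-26a-5p from 0.012 to -0.038, while miR-101a-3p, miR-101b-3p and miR-26b-5p moved to -0.16, -0.18 and -0.15. No paired analysis was possible because each group holds 1 library. Depth leaves the interval of Jarid2, the least counted member, at 0.864 to 1.08, so smaller differences were not detectable.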

Other observations

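At mir-101b, whose mature 3' arm was at a ratio of 0.913, reads outside both arms made up 51.2% of precursor reads in the control library and 51.3% in the one labelled H19 knockdown, against 5.97% and 6.42% at mir-101a.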
